A study of Mus musculus with 244 samples.

Results

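The genes of the cytoplasmic ribosome's proteins were described in single macrophages of the mouse aortic arch. They were taken by symbol: Rpl or Rps followed by a digit, together with Rplp0, Rplp1, Rplp2 and Rpsa, and without the Rps6k kinases, Rps19bp1 and symbols marked as pseudogenes. This rule found 87 of the 24475 genes in the deposited table, 53 of the large subunit and 34 of the small subunit. The regression cells came from atherosclerotic arches of Apoe-/- donors on a high fat diet that were grafted into WT mice on chow and taken 3 days later. The baseline cells came from arches of Apoe-/- mice after the same high fat diet. The diet of the Apoe-/- mice lasted 16 weeks in both groups. Apoe encodes apolipoprotein E, a carrier through which the liver takes up lipoprotein remnants. The groups therefore differed at once in surgery, in the genotype and diet of the animal that held the arch and in time, and these cannot be told apart. In both groups, cells positive for the surface markers CD45, CD11b and F4/80 were isolated by sorting, and a Fluidigm C1 chip then held them singly. The labels do not say whether a cell of a transplanted arch came from the donor or the host, and the sources used here give neither age nor sex nor the number of animals.

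Ribosomal proteins are built together with ribosomal RNA, in the nucleolus, into a large subunit, which joins amino acids, and a small subunit, which reads the mRNA. Most of their mRNAs start with a tract of pyrimidines, the 5′ terminal oligopyrimidine (TOP) tract, through which the mTORC1 kinase controls their translation as one set. In macrophages, demand for ribosomes is known to change with growth, activation and differentiation from monocytes.

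Values were RPKM, reads scaled by transcript length and library size, in 244 libraries of 1 cell each. A total of 3 pairs of baseline libraries were near copies of each other (r of log2 values 0.992 to 0.997, next highest pair 0.654) and were averaged, and 3 regression cells in which fewer than 1000 genes reached 1 RPKM were left out, which left 113 regression and 125 baseline cells. A gene at 1 RPKM or more is called listed. Where the low values showed the size of 1 read, depth had a median of 0.972 M reads in 74 regression libraries and 1.13 M reads in 85 baseline libraries. No animal is named for any cell, so each group is 1 sample: differences are given without a test, and SDs are over cells. The title numbers fall into 5 unbroken stretches of 1 condition each, cells 1-20, 93-111 and 168-244 in regression and cells 21-92 and 112-167 at baseline; the labels do not tie the stretches to capture runs. Each regression stretch was set against each baseline stretch, which gives 6 pairings. All 113 regression and all 125 baseline cells listed at least 3 of 10 macrophage markers. At least 3 of 6 classical monocyte markers were listed in 31 regression and 21 baseline cells, and at least 3 of 6 neutrophil markers in 14 regression and 5 baseline cells. The extraction text of the labels speaks of islet cells, whereas 2 regression and 0 baseline cells listed at least 3 of 6 islet markers, a count that allows a share of up to 2.40% at baseline, the share that 3 cells would make (counting error only).

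Ribosomal protein genes held a larger share of the RNA signal in regression cells. Their share of a cell's summed RPKM ran from 5.49% to 23.5% with a median of 13.2% in regression cells, and from 3.85% to 22.3% with a median of 9.11% in baseline cells. The groups overlapped: 98 of 113 regression cells (86.7%, exact Clopper-Pearson 95% interval 79.1% to 92.4%, counting error only) lay above the baseline median, 18 of 125 baseline cells lay above the regression median, and 1 regression cell lay above every baseline cell. The large subunit held a median of 6.83% in regression and 4.98% in baseline cells, and the small subunit 6.29% in regression and 4.25% in baseline cells. The ratio of the large to the small subunit's share was nearly equal, with a median of 1.11 in regression and 1.13 in baseline cells. By stretch, the median share was 13.4%, 12.5% and 13.7% in regression cells 1-20, 93-111 and 168-244, and 9.84% and 8.61% in baseline cells 21-92 and 112-167. All 3 regression medians lay above both baseline medians, by 2.68 to 5.04 percentage points over the 6 pairings.

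**Figure D1:**
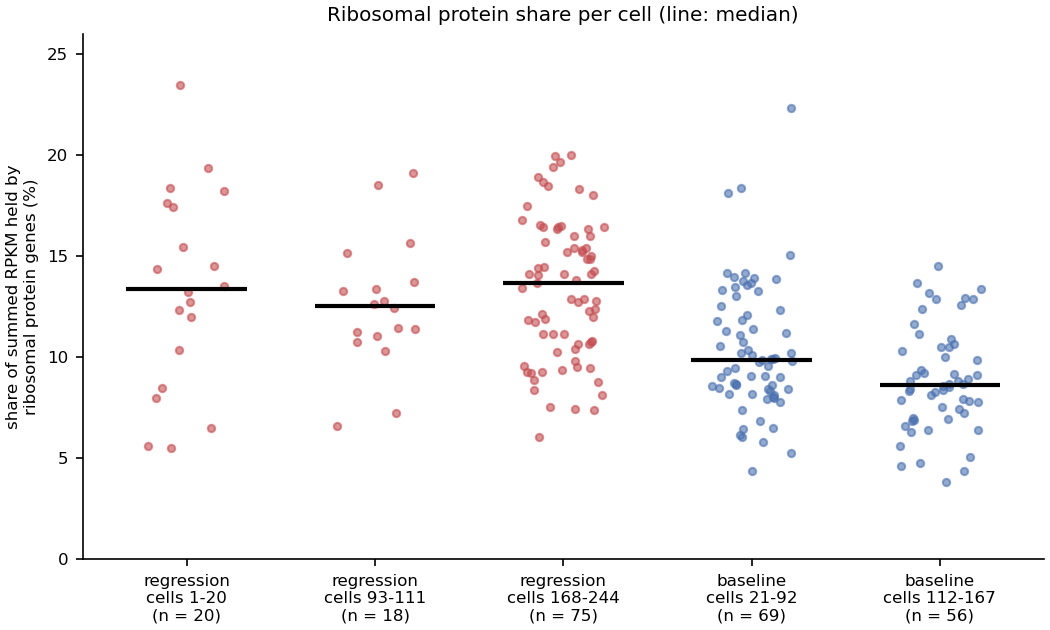
Share of summed RPKM held by the 87 ribosomal protein genes (%, vertical axis) in each cell, by stretch of title numbers; points are cells and lines are medians. The 3 regression medians lie between 12.5% and 13.7% and the 2 baseline medians at 9.84% and 8.61%, with wide overlap of single cells.

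The same share was compared in the cells that listed few markers of other myeloid cells. In the 73 regression and 100 baseline cells with under 3 classical monocyte and under 3 neutrophil markers, the median share was 12.8% in regression and 8.99% in baseline cells. Cells under this limit can still list some of these markers, so the cell make-up of the groups was not matched. Over all cells, the summed level of the 6 monocyte markers ran from 0 to 15386 RPKM (median 384) in regression and from 0 to 6847 RPKM (median 210) in baseline cells; that of the 6 neutrophil markers ran from 0 to 29863 RPKM (median 11.3) in regression and from 0 to 17711 RPKM (median 2.91) in baseline cells. None of the 6 monocyte markers was at 0 in every cell of a group, whereas the neutrophil markers Ly6g and Retnlg were at 0 in every regression cell and Ly6g in every baseline cell. Rn45s, the 45S precursor of ribosomal RNA, had a mean log2(RPKM + 1) of 10.54 ± 0.77 in regression and 9.55 ± 0.91 in baseline cells (SD over 113 and 125 cells), a difference of 0.99 that was positive in 6 of 6 pairings. Over cells, Rn45s and the ribosomal protein share had a Spearman correlation of 0.50 in regression (n = 113) and 0.16 at baseline (n = 125); both come from the same library and share its sum. The part of Rn45s in the protein genes' difference was not tested.

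A filter asked that a group list the gene in 25% or more of its cells. Of the 87 genes 83 passed it, all 83 in both groups. Levels here are means of log2(RPKM + 1) over cells, RPKM being scaled by length. The median level over the 83 genes was 8.90 in regression and 8.20 at baseline, and a gene's level in one group followed its level in the other (Pearson r 0.96 and Spearman rho 0.94 across 83 genes, which share libraries and are not independent replicates). Among the highest were Rps29, Rpl41, Rps25 and Rps19. Rps29, a small zinc-binding protein of the small subunit, had a level of 12.07 ± 0.83 in regression and 11.10 ± 0.79 in baseline cells (SD, n = 113 and 125). Rpl41, a very short basic peptide at the face between the subunits, had 11.71 ± 0.78 in regression and 10.71 ± 1.08 in baseline cells. Rps25, which in human and yeast cells supports initiation at internal entry sites, had 11.36 ± 1.34 in regression and 10.74 ± 1.83 in baseline cells. Rps19, the small subunit protein whose human gene is often mutated in Diamond-Blackfan anaemia, had 10.84 ± 1.67 in regression and 10.28 ± 1.22 in baseline cells.

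**Figure D2:**
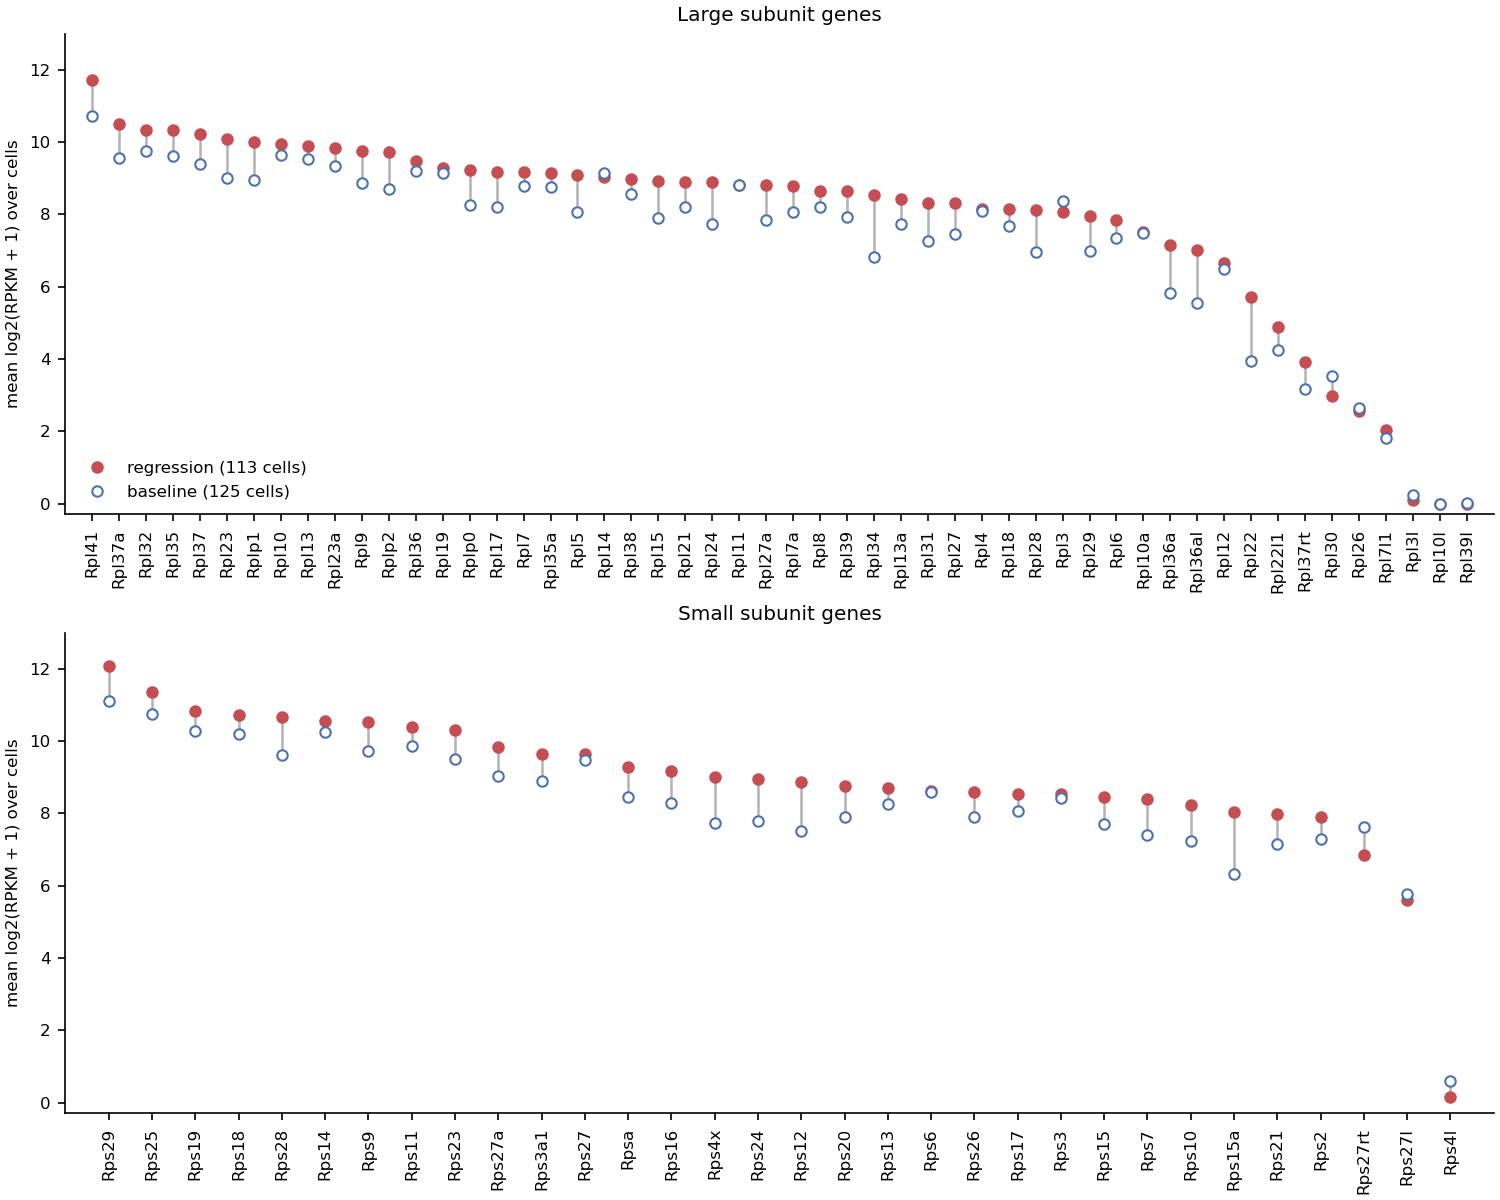
Mean log2(RPKM + 1) of 84 ribosomal protein genes over 113 regression cells (filled) and 125 baseline cells (open), large subunit above and small subunit below, ordered by the regression level. Most filled points lie above their open partner, and Rpl10l, Rpl39l, Rpl3l and Rps4l lie near 0 in both groups.

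A total of 5 genes were listed in every cell of both groups: Rps29, Rps25, Rps14, Rps9 and Rpl41. In all, 70 of the 83 reached 90% or more of the cells in both groups, 39 of the large and 31 of the small subunit. At the other end, the 5 lowest of the 83 were Rpl7l1, Rpl26, Rpl30, Rpl37rt and Rpl22l1. Rpl30, which in mammalian cells also binds selenoprotein mRNAs, was listed in 34 of 113 regression cells (30.1%, interval 21.8% to 39.4%) and 46 of 125 baseline cells (36.8%, interval 28.4% to 45.9%). It was nearly all or nothing: of the cells that listed it, 33 of 34 in regression and 44 of 46 at baseline had 100 RPKM or more, a limit chosen after the values were seen and used for other genes below. Rpl26, known in human cells to bind the p53 mRNA, was listed in 42 regression cells (37.2%) and 52 baseline cells (41.6%), at a median of 75.1 RPKM in those regression cells and 63.9 RPKM in those baseline cells. Both encode core proteins of the large subunit. Of the 50-base words of their coding sequences, 16.9% (Rpl30) and 12.7% (Rpl26) occurred in no other annotated transcript; the sources used here do not give how the authors' counting treated reads that fit several genes.

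In the comparison by gene, 76 of the 83 had a higher mean level in regression cells and 7 a lower one; over all 3946 genes that passed the filter, 46.7% were higher and 53.3% lower. The median difference, regression minus baseline, was 0.72 on the log2(RPKM + 1) scale (quartiles 0.38 and 0.98), against -0.05 over all 3946 genes. It was 0.71 over 50 large subunit genes, of which 45 were higher, and 0.74 over 33 small subunit genes, of which 31 were higher. A total of 19 genes were higher by at least 1 log2 unit, 12 of the large and 7 of the small subunit, against a background of 5.60% of all genes; 0 were lower by at least 1, against 7.37%. In all 6 pairings, 38 genes were higher (background 12.4%) and 0 lower (background 18.3%). The whole set without the filter, all 87 genes, had a median difference of 0.70. Over the pairings the median difference ran from 0.46 to 1.04, and after leaving out baseline cells 21-92 the count past 1 was 38 and after leaving out baseline cells 112-167 it was 9. The background of all genes was not counted without these cells.

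**Figure D3:**
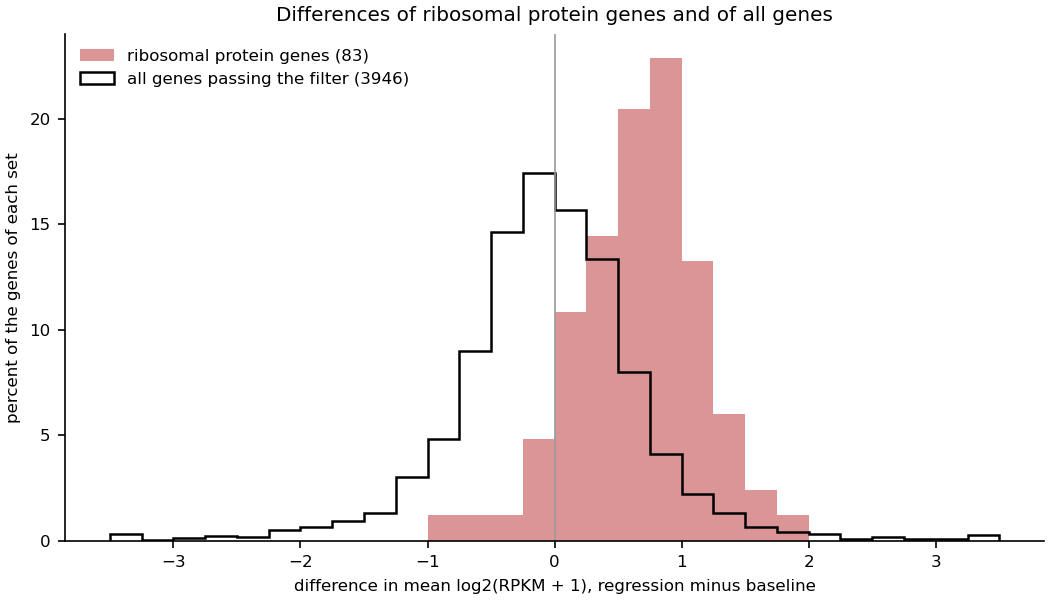
Difference in mean log2(RPKM + 1), regression minus baseline (horizontal axis), as percent of the genes of each set (vertical axis): filled bars are the 83 ribosomal protein genes and the outline is all 3946 genes that passed the filter, with values past 3.5 drawn in the end bins. The filled bars centre near the median of 0.72 and the outline near -0.05.

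The stretches of a group also differed from each other in these genes, at baseline by a larger median than in regression. Baseline cells 21-92 were above baseline cells 112-167 by a median of 0.57 over the 83 genes, with 68 higher and 15 lower, while the median over all 3946 genes was 0.0011. Of the 83, 8 were higher by at least 1 there, against a background of 3.47% of all genes. Between the 3 regression stretches the median differences were 0.15 for cells 1-20 less cells 168-244, -0.05 for cells 93-111 less cells 168-244, and 0.04 for cells 1-20 less cells 93-111; over all 3946 genes these were 0.09, -0.36 and 0.44. The smallest median between a regression and a baseline stretch, 0.46 for regression cells 93-111 less baseline cells 21-92, stood beside a median over all genes of -0.35.

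Among large subunit genes the highest differences were those of Rpl22, Rpl34, Rpl36al, Rpl36a, Rpl28 and Rpl24. Rpl22, an RNA-binding protein that mouse ribosomes can do without and that T cell development in mice needs, ran from 0 to 2927 RPKM (median 58.8) in regression cells and from 0 to 1228 RPKM (median 19.7) in baseline cells, a difference of 1.77 that was 1.21 or more in each pairing. Its cells fell at every height, and 47 of 113 regression cells (41.6%, interval 32.4% to 51.2%) had 100 RPKM or more, against 24 of 125 baseline cells (19.2%, interval 12.7% to 27.2%). Rpl34 ran from 0 to 6961 RPKM (median 436) in regression and from 0 to 2515 RPKM (median 154) in baseline cells, a difference of 1.71, positive in 6 of 6 pairings. Rpl28, a large subunit protein that budding yeast lacks, had a median of 432 RPKM in regression and 203 RPKM in baseline cells (ranges 0 to 2038 and 0 to 2551), a difference of 1.17 in 6 of 6 pairings. Rpl24, which forms a bridge between the subunits, had a median of 676 RPKM in regression and 343 RPKM in baseline cells, a difference of 1.15 in 6 of 6 pairings. In each of these genes the single cells of the groups overlapped over nearly their whole range.

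The lowest differences of the large subunit were those of Rpl30, Rpl3, Rpl14, Rpl26, Rpl11 and Rpl10a. Rpl3, a core protein that reaches towards the peptidyl transferase centre, had a level of 8.06 ± 2.70 in regression and 8.38 ± 2.66 in baseline cells (SD, n = 113 and 125), a difference of -0.32, negative in 4 of 6 pairings. Rpl11, which with Rpl5 and the 5S RNA can bind the p53 regulator Mdm2, had a median of 648 RPKM in regression and 545 RPKM in baseline cells, and a difference in level of -0.0019. Rpl10a, the protein of the L1 stalk, differed by 0.02 and Rpl14 by -0.11. Rpl30 differed by -0.55 with fewer regression cells listing it, while among listing cells alone the difference was 0.32. Rpl26 differed by -0.08, while the log2 ratio of its mean RPKM was 2.11; its highest regression cell had 14850 RPKM and its highest baseline cell 822 RPKM.

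Among the highest differences of small subunit genes were those of Rps15a, Rps12, Rps4x, Rps24 and Rps28. Rps15a, a core protein of the small subunit, ran from 0 to 4963 RPKM with a median of 733 in regression cells, and from 0 to 3111 RPKM with a median of 31.3 in baseline cells, a difference of 1.72. Its cells lay at a low and at a high level in both groups: 76 of 113 regression cells (67.3%, interval 57.8% to 75.8%) and 59 of 125 baseline cells (47.2%, interval 38.2% to 56.3%) had 100 RPKM or more. By stretch, these were 75.0%, 83.3% and 61.3% of regression cells 1-20, 93-111 and 168-244, and 47.8% and 46.4% of baseline cells 21-92 and 112-167. Rps12 differed by 1.33 in 6 of 6 pairings, with a median of 640 RPKM in regression and 356 RPKM in baseline cells. Rps4x, the X-linked S4 protein, differed by 1.25 but was positive in 5 of 6 pairings, since regression cells 1-20 lay below baseline cells 21-92. Rps24 differed by 1.16 in 5 of 6 pairings and Rps28 by 1.06 in 6 of 6.

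**Figure D4:**
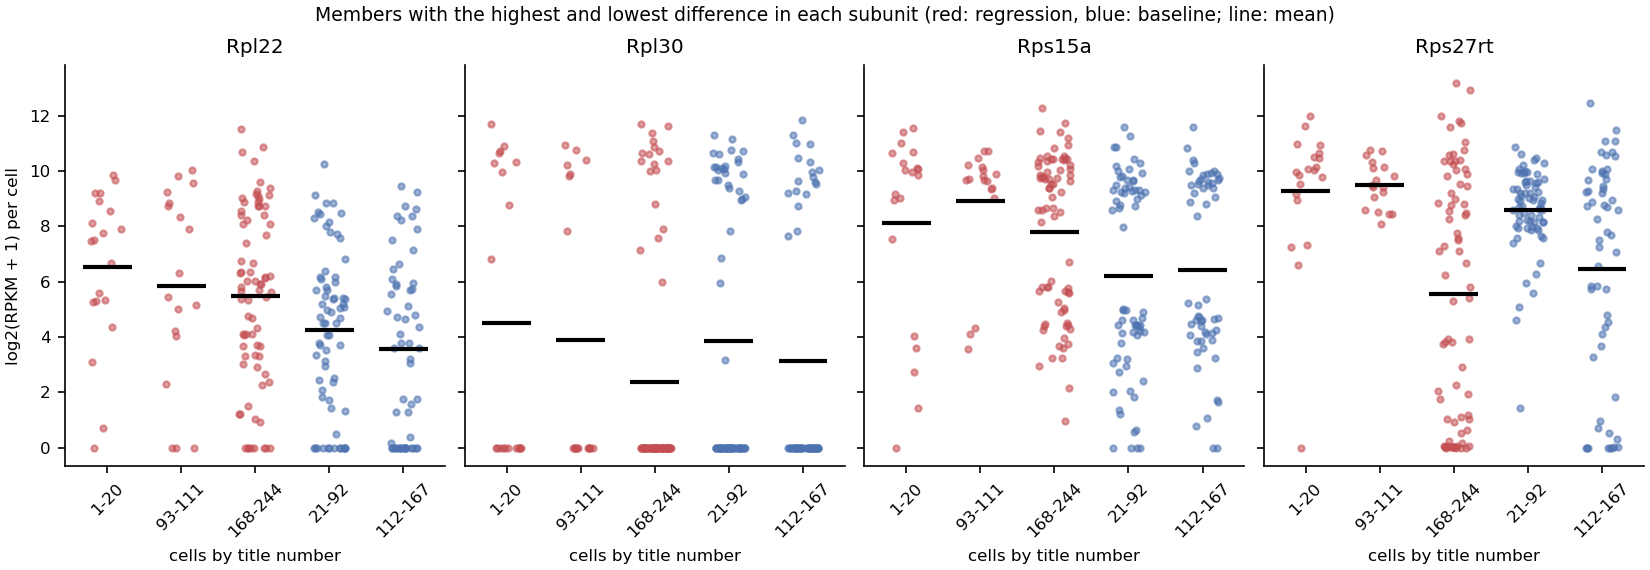
Log2(RPKM + 1) in single cells (vertical axis) by stretch of title numbers, for the gene with the highest and the gene with the lowest difference in each subunit; red points are regression cells, blue points baseline cells and lines means. Rps15a lies at 2 heights in every stretch, Rpl30 is at 0 or high, and Rps27rt is high in most cells of regression stretches 1-20 and 93-111 and of baseline stretch 21-92 and spread down to 0 in cells 168-244 and 112-167.

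The lowest differences of the small subunit were those of Rps27rt, Rps27l, Rps6, Rps3, Rps27 and Rps14. Rps6, the protein that S6 kinases phosphorylate when growth signals are on, had a median of 778 RPKM in regression and 684 RPKM in baseline cells and a difference of 0.04, positive in 2 of 6 pairings. Rps3, at the mRNA entry site, differed by 0.09. Rps14, at the small subunit's platform, had a median of 1703 RPKM in regression and 1452 RPKM in baseline cells, and its difference of 0.31 was positive in 6 of 6 pairings. Rps27l differed by -0.15, positive in 3 of 6 pairings.

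Rps27rt, the retrogene of Rps27, varied widely between stretches. It had a difference of -0.79, but its pairings ran from -3.04 to 3.04, and its mean level was 9.29, 9.49 and 5.55 in regression cells 1-20, 93-111 and 168-244 and 8.59 and 6.45 in baseline cells 21-92 and 112-167. Its direction turned with the cells used: the difference was 1.76 without regression cells 168-244 and 0.39 without baseline cells 21-92, and the log2 ratio of its mean RPKM was 0.56. The coding sequences of Rps27 and Rps27rt in GENCODE vM21 were identical over all 252 bases. Summed per cell, Rps27 and Rps27rt had a median of 2253 RPKM in regression and 1536 RPKM in baseline cells and a difference of 0.55, which was positive in 6 of 6 pairings and ran from 0.22 to 0.75. The sum's mean level lay between 10.43 and 11.18 in all 5 stretches, a narrower range than that of Rps27rt. The deposited annotation places Rps27rt on chromosome 3 and RefSeq GRCm38.p6 places it on chromosome 9, at chr9:114982366-114982739.

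Rps27 (chr3:90212667-90213648 in RefSeq GRCm38.p6) and its paralog Rps27l (chr9:66944624-66949522) could be told apart: 192 of 252 aligned bases (76.2%) were the same. Their coding sequences from GENCODE vM21 are shown, with the bases that differ in capitals, because the pair gave opposite signs.
Rps27: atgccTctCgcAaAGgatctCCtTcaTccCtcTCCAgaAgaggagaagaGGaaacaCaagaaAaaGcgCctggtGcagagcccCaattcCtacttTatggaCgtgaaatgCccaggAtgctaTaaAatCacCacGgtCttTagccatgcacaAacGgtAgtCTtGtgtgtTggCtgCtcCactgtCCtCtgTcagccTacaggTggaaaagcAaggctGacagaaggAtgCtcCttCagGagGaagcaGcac
Rps27l: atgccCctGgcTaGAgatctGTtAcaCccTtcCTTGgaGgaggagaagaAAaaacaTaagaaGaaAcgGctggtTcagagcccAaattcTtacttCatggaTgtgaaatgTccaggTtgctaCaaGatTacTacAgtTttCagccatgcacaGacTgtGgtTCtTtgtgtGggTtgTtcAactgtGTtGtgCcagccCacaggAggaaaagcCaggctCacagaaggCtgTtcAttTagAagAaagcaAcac
Rps27 had a median of 1530 RPKM in regression and 1080 RPKM in baseline cells and a difference of 0.16, while Rps27l, which p53 induces in human cells, had a median of 105 RPKM in regression and 179 RPKM in baseline cells. The opposite signs are thus of small differences, and that of Rps27l, -0.15, was positive in 3 of 6 pairings. By coding sequence, Rps27 cannot be separated from Rps27rt.

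Rpl36a (chrX:134585654-134588062) and its autosomal relative Rpl36al (chr12:69182734-69184067) are a second pair of paralogs, with 279 of 318 coding bases the same (87.7%). Of their 50-base coding words, 0% (Rpl36a) and 18.6% (Rpl36al) occurred in no other annotated transcript, which limits how far their separate values can be trusted. Bases 1 to 180 of their coding sequences, which hold 30 of the 39 differing bases, are shown in the same way. Both genes were among the 6 highest of the large subunit.
Rpl36a: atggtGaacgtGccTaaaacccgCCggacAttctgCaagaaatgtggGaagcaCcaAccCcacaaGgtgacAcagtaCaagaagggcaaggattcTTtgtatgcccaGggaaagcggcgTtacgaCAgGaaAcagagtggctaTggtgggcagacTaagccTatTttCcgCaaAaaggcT
Rpl36al: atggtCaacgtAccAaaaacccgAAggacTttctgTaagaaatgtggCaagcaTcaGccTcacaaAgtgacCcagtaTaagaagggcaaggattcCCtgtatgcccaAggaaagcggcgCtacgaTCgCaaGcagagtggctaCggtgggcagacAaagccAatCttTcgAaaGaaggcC
Rpl36al differed by 1.46 and Rpl36a by 1.34, each positive in 4 of 6 pairings. Regression cells 93-111 lay below the other regression cells. In them 7 of 18 cells (38.9%) had 100 RPKM or more of Rpl36a, against 80.0% of regression cells 1-20 and 73.3% of cells 168-244. At baseline these were 49.3% and 57.1% of cells 21-92 and 112-167. For Rpl36al these were 6 of 18 regression cells 93-111 (33.3%), 90.0% of cells 1-20 and 73.3% of cells 168-244, and 53.6% of each baseline stretch. Shares of 18 cells carry a wide counting error. Over cells, the levels of Rpl36a and Rpl36al were hardly related (Spearman 0.01 over 113 regression cells and 0.06 over 125 baseline cells).

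Of the paralogs that mark tissues, most were near 0. Rpl10l, a testis gene in mice, was at 0 in all cells, which allows a share of listing cells of up to 2.65% in regression and 2.40% at baseline, again the share that 3 cells would make. Rpl39l, also a testis gene, was listed in 0 regression cells and 1 baseline cell. Rpl3l, a gene of heart and skeletal muscle, was listed in 2 of 113 regression and 5 of 125 baseline cells. Rps4l was listed in 3 of 113 regression cells (2.65%, interval 0.55% to 7.56%) and 13 of 125 baseline cells (10.4%, interval 5.65% to 17.1%). Rpl22l1, the paralog of Rpl22, was higher by 0.66 in regression cells, with a median of 86.0 RPKM in regression and 37.3 RPKM in baseline cells, positive in 5 of 6 pairings; Rpl22 and Rpl22l1 were thus higher together. Rpl7l1 differed by 0.22 and Rpl37rt, a retrogene of Rpl37, by 0.76 in 6 of 6 pairings, with a median of 21.1 RPKM in regression and 11.0 RPKM in baseline cells. By mean share of summed RPKM both were lower in regression. Rpl37rt held 0.0038% in regression and 0.0045% in baseline cells, and Rpl7l1 0.0038% and 0.0054%. Coding words that Rpl37rt shares with Rpl37 were not counted.

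The 3 proteins of the stalk, which recruits elongation factors to the large subunit, were higher together. Rplp1 had a level of 10.00 ± 1.53 in regression and 8.96 ± 2.30 in baseline cells (SD, n = 113 and 125), a difference of 1.04 in 5 of 6 pairings. Rplp2 differed by 1.00 and Rplp0, the base of the stalk, by 0.95, each in 6 of 6 pairings. Rplp0 was listed in 99.1% of regression and 94.4% of baseline cells.

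Most of the genes share long runs of their coding sequence with other transcripts. Of 82 genes past the filter with a coding sequence in GENCODE vM21, the median shared all but 9.73% of its 50-base coding words with other transcripts and 43 had under 10% of their own. The 65 with under 30% unique words had a median difference of 0.72, with 59 higher and 6 lower. The 17 with 30% or more had one of 0.57, with 16 higher and 1 lower. Over all 3946 genes past the filter 46.7% were higher.

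Starts of transcription were compared in RefSeq GRCm38.p6, which held 66 of the 87 genes. A start at C followed by at least 4 further C or T bases on the gene's strand, the letters of a TOP tract, was present in 14 of the 66 (21.2%), against 3.01% of 27025 genes; a run of at least 8 C or T bases lying within 20 bases of the start was present in 30 (45.5%), against 18.4%. Only the gene's strand was searched, and the second pattern can hold the first. The first pattern misses a tract that begins off the annotated start base, so a gene without it may still have a TOP tract. The windows below hold 25 bases before the start and 15 from it, 5′ to 3′ on the gene's strand, with the run that begins at the annotated start in capitals; they are of genes at both ends of the differences.
Rps15a (chr7:118116133-118116172, - strand): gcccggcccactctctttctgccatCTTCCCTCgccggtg
Rpl28 (chr7:4792940-4792979, + strand): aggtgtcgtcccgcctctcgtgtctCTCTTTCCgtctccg
Rps6 (chr4:86857353-86857392, - strand): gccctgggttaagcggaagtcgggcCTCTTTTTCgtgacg
Rpl14 (chr9:120571492-120571531, + strand): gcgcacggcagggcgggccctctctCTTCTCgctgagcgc
Rpl34 (chr3:130730384-130730423, - strand): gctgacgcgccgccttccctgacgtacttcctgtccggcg
Rpl22 (chr4:152325701-152325740, + strand): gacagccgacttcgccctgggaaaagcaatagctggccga
Rpl11 (chr4:136053379-136053418, - strand): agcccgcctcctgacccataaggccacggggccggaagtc
Rps27l (chr9:66946061-66946100, + strand): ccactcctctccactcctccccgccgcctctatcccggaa
Rps15a and Rpl28, with differences of 1.72 and 1.17, and Rps6 and Rpl14, with differences of 0.04 and -0.11, all begin with such a run. No run begins at the starts shown for Rpl34 and Rpl22 at the high end or Rpl11 and Rps27l at the low end. The start shown for Rps27l lies inside the gene's span given above and not at its first base. Genes of the set with the first pattern had a median difference of 0.62 (14 genes) and those without it 0.76 (49 genes past the filter). Since the genes without it may hold TOP tracts, this split cannot tell how TOP tracts relate to the difference.

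The number of genes detected per cell went with how many ribosomal protein genes were listed, and hardly with their share. Regression cells listed a median of 2360 genes and baseline cells 2491, and of the 87 ribosomal protein genes a median of 79 in regression (range 50 to 84) and 80 at baseline (range 48 to 84). Across cells, the number of genes listed and the number of ribosomal protein genes listed had a Spearman correlation of 0.63 in regression (n = 113) and 0.71 at baseline (n = 125). For the mean level over the 87 genes it was 0.41 in regression and 0.56 at baseline. For the share it was -0.17 in regression and -0.01 at baseline. These measures come from the same library, the ribosomal protein genes are among the genes counted, and without them the correlations with genes listed were 0.63 and 0.70 for the number listed and -0.17 and -0.01 for the share.

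**Figure D5:**
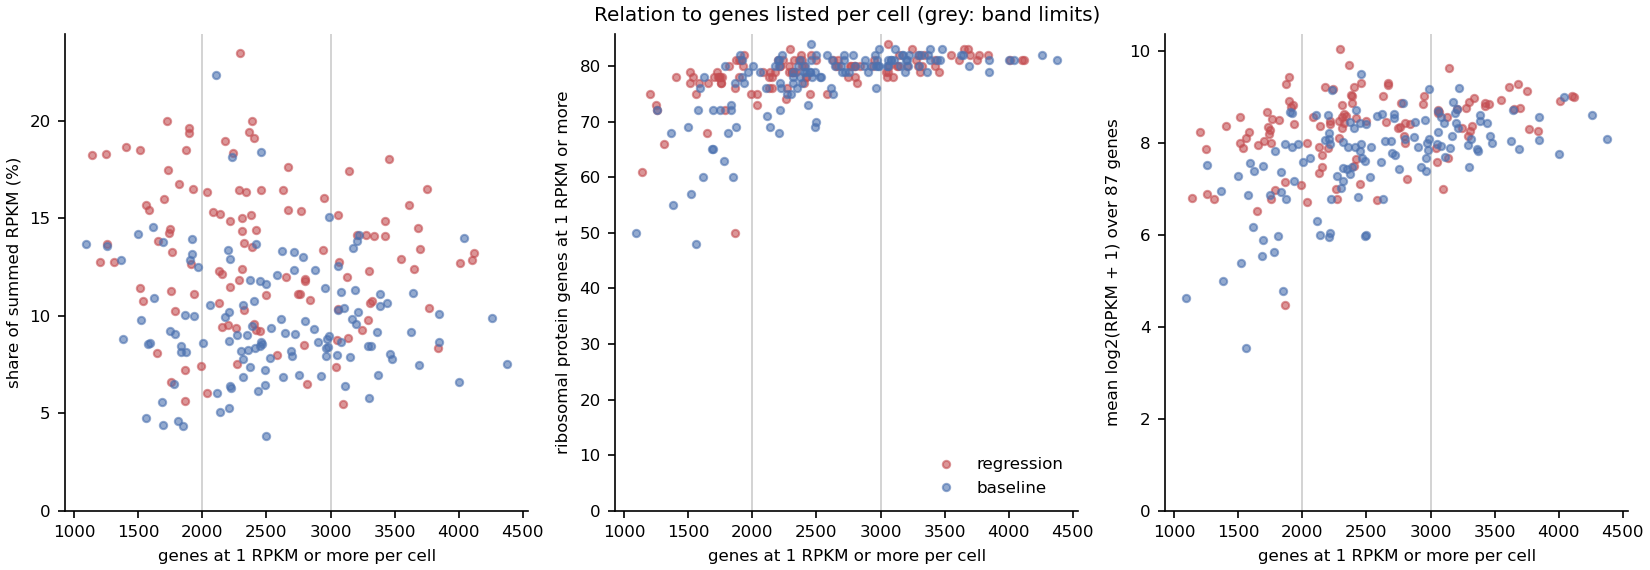
Share of summed RPKM (%), ribosomal protein genes listed, and their mean log2(RPKM + 1) (vertical axes) against genes at 1 RPKM or more (horizontal axis) in 113 regression cells (red) and 125 baseline cells (blue); grey lines mark 2000 and 3000 genes. The number listed levels off near 80 above 2000 genes, while the share shows no clear slope, with Spearman correlations of -0.17 in regression and -0.01 at baseline.

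Within stretches the relation with the number listed was positive throughout: 0.49, 0.76 and 0.68 in regression cells 1-20, 93-111 and 168-244, and 0.65 and 0.77 in baseline cells 21-92 and 112-167. That with the share changed sign: -0.30, 0.28 and -0.24 in the regression stretches, and 0.10 and -0.09 in the baseline stretches. Estimated depth and the share had a Spearman correlation of -0.05 over 74 regression cells and 0.18 over 84 baseline cells. By stretch it was 0.50 (n = 13), -0.04 (n = 11) and -0.19 (n = 50) in regression cells 1-20, 93-111 and 168-244. In baseline cells 21-92 and 112-167 it was 0.09 (n = 46) and 0.25 (n = 38).

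At like numbers of genes, the share stayed higher in regression cells. With 1000 to under 2000 genes it was 14.0% in 32 regression cells and 9.52% in 28 baseline cells, with 2000 to under 3000 genes 12.9% in 50 regression cells and 8.94% in 63 baseline cells, and with 3000 genes or more 12.8% in 31 regression cells and 9.72% in 34 baseline cells, as medians. The median difference over the 83 genes was 1.34, 0.59 and 0.43 in these bands, with 76, 73 and 75 genes higher. Over all 3946 genes past the filter the medians in the same bands were 0.03, -0.06 and 0.06. The lowest band thus had the largest difference in level, and there baseline cells also listed fewer of the genes, a median of 77.5 in regression and 72.0 in baseline cells, against 79.5 in regression and 79.0 in baseline cells with 2000 to under 3000 genes and 81.0 in both groups with 3000 genes or more. Among only those cells that listed a given gene, with all bands together, the median difference was 0.54.

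By gene, the correlation with the number of genes listed was weak. Its median over the 83 genes was 0.04 in regression and 0.12 at baseline, and it ran from -0.35 (Rps27rt) to 0.28 (Rps27l) in regression and from -0.08 (Rps14) to 0.36 (Rpl22) at baseline. Taken over both groups, the highest were Rps27l, Rpl12 and Rpl22, and the lowest Rps27rt, Rps9 and Rpl13. Rpl12, a protein at the base of the stalk, had 0.27 in both groups and differed in level by 0.15, and Rps9 had -0.21 in regression and -0.01 at baseline.

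Ribosomal protein genes also varied together over the pooled cells of a group. Over the 70 that reached 90% or more of the cells in both groups, the median Pearson correlation of a pair was 0.17 in regression and 0.21 at baseline, against 0.03 in regression and 0.06 at baseline for pairs of 172 other genes listed as often. Pairs within the large subunit (0.18 in regression, 0.22 at baseline), within the small subunit (0.17 and 0.20) and across subunits (0.17 and 0.22) were alike. All such pairs share libraries, and the correlations are weak.

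Proteins of the ribosome that the symbol rule does not reach were higher as well: Fau, which encodes a ubiquitin-like protein fused to a small subunit protein, by 0.71 and Gnb2l1, the scaffold protein RACK1, by 0.63. Among 20 elongation factors and other genes with TOP tracts, 16 were higher and 4 lower, with a median of 0.55. Over all 3946 genes past the filter 46.7% were higher and 53.3% lower, with a median of -0.05. Tpt1, the translationally controlled tumour protein, had a level of 10.75 ± 1.02 in regression and 8.89 ± 1.69 in baseline cells (SD, n = 113 and 125), a difference of 1.86, larger than that of any ribosomal protein gene. Pabpc1, the poly(A)-binding protein, differed by 1.36 and Eef1b2, an exchange factor of elongation factor 1, by 1.25, positive in 6 and 4 of 6 pairings.

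Genes that start translation, build ribosomes or sense their faults were not higher as sets. Beside them, 46.7% of all 3946 genes past the filter were higher and 53.3% lower, with a median of -0.05. The median of the initiation factors lay close to that of all genes. Of 24 initiation factors, 9 were higher and 15 lower, with a median of -0.07; Eif5a, which helps ribosomes through stalling sequences, differed by -0.90, Eif4g2 by 0.87 and Eif3i by 0.84. Of 32 ribosome biogenesis genes, 16 passed the filter, 4 higher and 12 lower, with a median of -0.19; Sbds, which readies the large subunit, differed by -1.09, Rrn3, an initiation factor of RNA polymerase I, by -0.86 and Ebna1bp2 by -0.57. Of 20 genes of mTORC1 and Myc control, 5 passed, with a median of 0.01, Eif4ebp1, the translation repressor that mTORC1 releases, being higher by 0.75, while Larp1, which binds TOP tracts, differed by 0.43 and Larp4 by -0.36. Of 12 genes of ribosome quality control and the p53 checkpoint, 5 passed, 1 higher and 4 lower, with Cdkn1a, the cell cycle inhibitor p21, at -1.40 (negative in 4 of 6 pairings), Nemf at -0.82 and G3bp1 at -0.33.

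The proteins of the mitochondrial ribosome did not share the direction of the cytoplasmic ones. Of 77 genes, 40 passed the filter, 20 higher and 20 lower, with a median of -0.01. These lie near the values of all 3946 genes, 46.7% higher and 53.3% lower with a median of -0.05. Mrps21 differed by 1.26, Mrpl54 by -0.96 and Mrpl57 by 0.92. Among 15 of 37 mitochondrially encoded transcripts that passed, 10 were higher and 5 lower, with a median of 0.35, and the mitochondrial share of summed RPKM had a median of 8.13% in regression and 7.09% in baseline cells. Of 9 reference transcripts, 6 were higher and 3 lower, with a median of 0.17, but Gapdh, an enzyme of glycolysis, differed by 1.68 and Actb, cytoplasmic actin, by -0.44.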

How the data were processed

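The authors deposited 1 table of RPKM values per gene and cell and a gene annotation; per the submitters' processing notes, mm10 was the build and CASAVA 1.8.2 and FastQC were used. The aligner, the counting program and its handling of reads of several genes were not given in the sources used here. Per the labels' protocols, the SMARTer Ultra Low kit on the C1 chip gave cDNA and Nextera XT gave the libraries. These carry no molecular identifiers, and values include amplification noise. Summed RPKM differed between cells, with a median of 672803 in regression and 629472 in baseline cells.

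Differences are means of log2(RPKM + 1) over regression cells minus baseline cells, which understates low genes. No count model was applied to RPKM; intervals are exact Clopper-Pearson ones at 95%, for counting error only. Each group is 1 sample, so no test was made. Doublets were not called, since the values are not counts. Depth was estimated from the step between low values, where 2 gene sets agreed on it within 10%. Coding words of 50 bases and coding sequences came from GENCODE vM21, and starts and positions from RefSeq GRCm38.p6, the assembly of mm10. Scripts ran in Python 3.11.15 with numpy 2.4.6, pandas 2.3.3, scipy 1.17.1 and biopython 1.88, and the calculation was checked on simulated data.

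The genes and lists were chosen with earlier results of these data known. The genes named were, among those past the filter, the 6 highest and 6 lowest differences of each subunit, the 5 highest and 5 lowest levels, the stalk genes, the paralogs, the 3 highest and 3 lowest correlations with genes listed and the 3 largest absolute differences of each other list; genes outside this rule (Rps4l, Rpl3l, Rpl10l, Rpl39l and Rn45s among them) were named after their values were seen. A few genes that the rule takes are not reported here by name; they remain in all counts and medians. Other pseudocounts, filters, scalings and sets of cells were tried.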

Additional observations from a re-analysis of the deposited data

How the results depend on the processing

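The median difference of the ribosomal protein genes, 0.72, and the difference of their median share, 4.13 percentage points, stayed positive under all alternatives run. Moves within 1 SD over the 6 stretch pairings (for correlations, over stretches) are not listed. Counts of genes past 1 log2 unit have no such SD, and those within a fixed ratio of the main count are not listed. No named gene past 1 log2 unit changed sign. The median difference was 0.99 without baseline cells 21-92, 1.34 in cells with 1000 to under 2000 genes (large 1.40, small 1.31) and 0.43 in cells with 3000 genes or more (large 0.40, small 0.44), where the share difference was 3.06 points.

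The 19 genes higher by at least 1 became 9 with a pseudocount of 10 RPKM, 11 after rescaling each cell to 1000000, 5 by the log2 ratio of mean RPKM, 7 by medians over cells, 9 in cells with at least 2000 genes, 11 with all cells, 38 without baseline cells 21-92, 9 without baseline cells 112-167, 53 in cells with 1000 to under 2000 genes and 1 in cells with 3000 genes or more. With alternatives chosen after seeing the data they became 8 among the cells that list a gene and 10 without cells of 3 or more monocyte or neutrophil markers. The 0 genes lower by at least 1 became 1 with a pseudocount of 0.1 RPKM, in cells with at least 2000 genes, in cells with 3000 genes or more, and without regression cells 1-20, regression cells 93-111 or baseline cells 112-167; each time that gene was Rps27rt, at -1.09 to -2.84. The 1 gene higher by at least 1 in cells with 3000 genes or more was Rps24, at 1.12. The share of all genes past 1 was not counted under these alternatives. The moves of the count therefore have no background beside them and cannot be read as particular to these genes.

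The median difference of 1.34 in cells with 1000 to under 2000 genes became 1.07 with a pseudocount of 10 RPKM, 0.76 by the ratio of means, 1.01 by medians, 1.60 without baseline cells 21-92, 0.92 without baseline cells 112-167 and 1.00 without regression cells 168-244; that of 0.59 in cells with 2000 to under 3000 genes became 0.86 without regression cells 168-244. The correlation of mean level with genes listed at baseline, 0.56, became 0.49 with a pseudocount of 10 RPKM, 0.37 in cells with at least 2000 genes and 0.63 in baseline cells 112-167; in regression cells 93-111 it was 0.74, against 0.41 over regression. That of the number listed became 0.56 at baseline in cells with at least 2000 genes and 0.49 in regression cells 1-20, and that of the share 0.28 in regression cells 93-111.

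Of the other lists, the median of reference transcripts became 0.037 after rescaling, -0.075 in cells with at least 2000 genes, -0.044 with all cells, 0.00962 without regression cells 1-20, 0.046 and -0.00504 without baseline cells 21-92 and 112-167, and -0.12 without regression cells 168-244. Quality control and p53 genes moved to -0.59 by the ratio of means, -0.81 by medians and -0.81 without baseline cells 112-167, stalk genes to 0.49 and mTORC1 and Myc genes to 0.43 by medians, and the 3 genes outside the symbol rule to 0.44 in cells with at least 2000 genes. The cause of these moves was not tested. Rescaling moved the median of all genes by 0.06, to -0.11, and the ribosomal protein genes' to 0.60. No paired analysis was possible because the labels give no number shared between the groups and each group is 1 sample.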

Other observations

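In the 3 regression cells left out for listing fewer than 1000 genes, ribosomal protein genes held 15.1%, 27.4% and 4.58% of summed RPKM, with 48, 68 and 37 of the 87 genes listed. The first is of stretch 93-111 and the other two are of stretch 168-244. The second lies above the highest of the 113 regression cells kept, 23.5%, and the third below the lowest, 5.49%.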
